A study of Homo sapiens with 8 samples.

Results

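This account covers the response of TOV-21G cells to silencing of CSE1L. TOV-21G is an established line from an ovarian clear cell carcinoma. Per the labels, cells received either an siRNA against CSE1L or a scrambled control siRNA, and total RNA was taken 72 h after transfection for Illumina expression arrays. Each group held 2 arrays, from experiments numbered 1 and 2, so 4 of the 8 arrays of the series are from TOV-21G; the other 4 are the same treatments in SK-OV-3, another ovarian carcinoma line. The siRNA sequences, the number of siRNAs and untransfected cells are not described in the sources used here. The genes described are those that TOV-21G expressed: 8598 of the 9377 genes and unnamed probes tested in the series had a detection p below 0.01 in at least 2 of the 4 TOV-21G arrays. Of these, 7689 carried a gene symbol and 909 were probes with none. The 8598 are called the detected genes here.

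CSE1L encodes an exportin also known as CAS. Importin alpha carries proteins with a classical nuclear localisation signal into the nucleus together with importin beta, and CSE1L, bound to Ran in its GTP form, carries importin alpha back out for another round. Genes for DNA replication and for mitosis are expressed in waves through the cell cycle. E2F factors act at E2F sites in the promoters of G1/S genes, while many G2/M genes carry CCAAT boxes and a cell cycle homology region, where the DREAM complex represses them in resting cells and MYB and FOXM1 activate them in dividing cells.

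The 4 TOV-21G arrays detected 9499 to 9820 of 24531 probes (38.7% to 40.0%), with median signals of 163.1 to 202.5. Replicates correlated across the detected genes at 0.976 in control and 0.967 in silenced cells. Of the markers of clear cell carcinoma, SPP1, GLRX, PAX8 and FXYD2 were detected on all 4 arrays, TFPI2 only on the silenced ones and NAPSA on 1 silenced array. ANXA4, LEFTY1 and RBP4 were undetected. Among epithelial markers KRT7, KRT8 and KRT18 were detected on all 4 arrays, KRT19 on 1 array of each group, CLDN3 on 1 control array and CDH1 on both control arrays but no silenced one. EPCAM, CLDN4, CLDN7 and MUC1 were undetected throughout. Of 10 endothelial markers 0 were detected, and of 9 leukocyte markers CD68 was detected on all arrays, CD14 on 1 control and 2 silenced arrays, and PTPRC, CD3D, CD3E, CD79A, CSF1R, LYZ and NKG7 on none. The fibroblast markers COL1A1, DCN and PDGFRA were detected on all arrays and the other 7 on none. The cells measured thus carried keratins and some clear cell markers but lacked several epithelial ones. The TOV-21G arrays are called control 1 and 2 and silenced 1 and 2 after their experiments. Below, levels are normalized log2 intensities of 1 probe, which compare arrays and not genes, and a change is the silenced mean minus the control mean on that scale. Adjusted p-values come from limma, by the Benjamini-Hochberg method over all 9377 genes with a threshold of 0.05 (over all probes where another probe of a gene is given), and SE is the standard error of a change in that fit. Nothing in the labels says how far the experiments were separate, so these p-values reflect the spread between arrays only, which may be technical. With 2 arrays against 2, no exact test on a gene alone could reach 0.05.

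CSE1L itself was measured at 13.02 and 11.65 in the control arrays of experiments 1 and 2, and at 8.80 and 7.72 in the silenced arrays. Both silenced arrays lay far below both control arrays, although the control arrays differed from each other by more than for most genes. The change was -4.08 (SE 0.63, 16.9-fold lower, n = 2 arrays per group, limma adjusted p = 0.0257). In SK-OV-3 the change was -2.55 (adjusted p = 0.262); the test of a difference from TOV-21G gave an adjusted p of 0.620. A probe without a gene symbol in the annotation used here, ILMN_1706238, went from 13.80 and 13.39 to 9.65 and 9.37, a change of -4.08 (SE 0.48, adjusted p = 0.0154). It was the only detected probe with a fall as large as that of CSE1L. The CSE1L call was lost when control 1 (-3.42, adjusted p = 0.162), control 2 (-4.75, 0.0767) or silenced 2 (-3.52, 0.112) was omitted.

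Among the importin alpha genes, whose proteins CSE1L exports, KPNA4 and KPNA6 were detected. KPNA4 was at 12.05 and 11.96 in control cells and at 13.36 and 13.22 in silenced cells. All silenced values were above all control values, and KPNA4 rose by 1.29 (SE 0.27, 2.44-fold, limma adjusted p = 0.0471), next to the threshold. KPNA6 was at 12.38 and 12.50 in control and at 12.98 and 12.91 in silenced cells, a change of 0.51 that did not pass (adjusted p = 0.238). KPNA1, KPNA2, KPNA3, KPNA5 and KPNA7 did not count among the detected genes. A gene can be missing there for want of a named probe as well as of signal, so this does not show lack of expression. The KPNA4 call was lost with median scaling (1.15, adjusted p = 0.088), with no detection filter (0.0625) and when any 1 of the 8 arrays was omitted (0.056 to 0.203). The wider list of nuclear transport receptors and Ran cycle genes had 24 detected members and a median of -0.15. Of these 1 was called higher and 1 lower (4.17% each), against 1.17% and 2.24% of all detected genes. The lowered member was XPO7, an exportin, which went from 11.003 and 11.03 to 10.01 and 9.93 (-1.04, SE 0.20, adjusted p = 0.0348). XPO7 lost its call with median scaling (adjusted p = 0.058). XPO1, the exportin for leucine-rich export signals, changed by -0.51 with overlapping groups, and RAN by -0.64, without passing (adjusted p = 0.497 and 0.267). The nucleoporin list, of nuclear pore subunits, had a median of -0.43 over 26 detected members, 21 of them below 0. Limma called 0 of the 26, where 3.42% of all detected genes were called, so this count says little about the list. An unadjusted p below 0.05 was found for 8, all lower, against 1807 of the 8598 detected genes in either direction. NUP85 at -0.87, NUP155 at -0.92, NUP210 at -1.38 and NUP37 at -0.76 came nearest (adjusted p = 0.0731 to 0.0925). With the experiment block 2 nucleoporins were called lower, and with no background correction 4.

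Across the 8598 detected genes limma called 294, or 3.42%. There were 101 higher (1.17%) and 193 lower (2.24%) after silencing, and among those with a symbol 94 were higher and 179 lower. Over all 9377 genes tested 3.17% were called. In all 294 the 2 silenced arrays lay on one side of the 2 control arrays, and the change had the same sign in both experiments. Across all detected genes 24.9% had both silenced arrays above both controls and 25.1% had both below. The median change was 0.01, the middle 50% of genes lay between -0.32 and 0.32, and 5% of genes lay below -0.97. Called genes had a median absolute change of 1.496, and 288 of them reached 2-fold. The called lower genes had a median of -1.53 in experiment 1 and -1.63 in experiment 2, the called higher genes 1.34 and 1.37. Since genes were called where the experiments agreed, the likeness of these medians follows from the choice. Across all detected genes the changes in experiments 1 and 2, which share a normalization, correlated at 0.70. Of the 7559 genes detected on all 4 arrays, 78 were called higher and 138 lower. With the experiment number as a block, the count was 580 (233 higher, 347 lower), and 288 of the 294 were among them. Median scaling in place of quantile normalization gave 44 higher and 225 lower and moved the median of the detected genes from 0.01 to -0.10, so the excess of falls over rises was larger on that scale. RN7SK was the 1 detected snRNA gene and was called higher, while 0 of 16 lncRNA genes were called by limma.

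**Figure D1:**
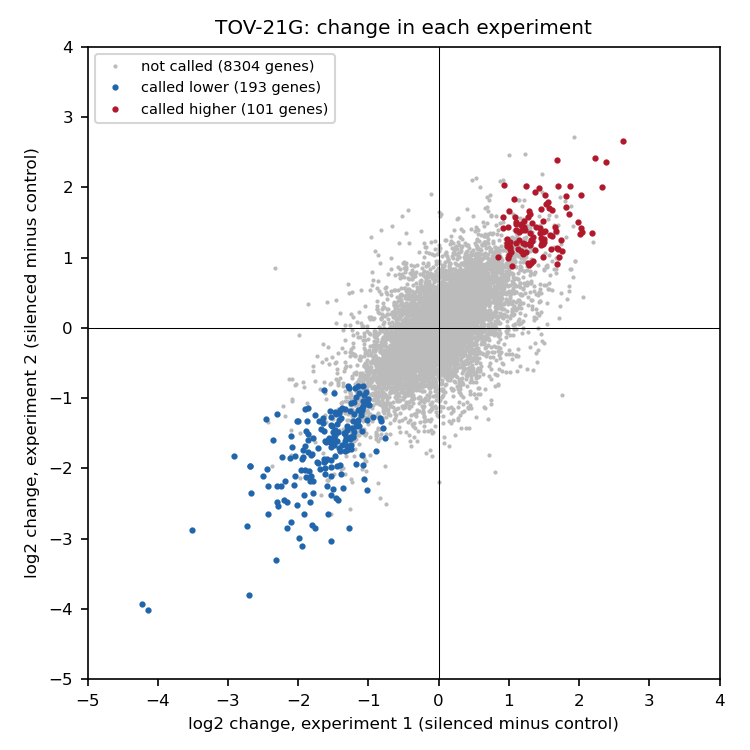
Each point is 1 of the 8598 detected genes, with its log2 change (silenced minus control) in experiment 1 on the horizontal and in experiment 2 on the vertical axis; blue points are the 193 genes called lower and red points the 101 called higher. All called genes lie in the quadrants where both experiments agree in sign, and the 2 points near -4 on both axes are CSE1L and a probe with no symbol.

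The counts rested on individual arrays. The number of detected genes called was 0 when control 1, control 2 or silenced 2 was omitted, and 141 when silenced 1 was. Omitting any 1 SK-OV-3 array also lowered the number called. Those arrays enter the normalization, the detection filter and the shared spread, and which of these lowered the number was not tested. At an unadjusted p below 0.05 the fits with 0 calls held 1101, 1243 and 1368 genes, against 1807 with all arrays. With only the 4 TOV-21G arrays 0 were called, and 1583 had an unadjusted p below 0.05. Of the 65 called genes named by rule here, all 62 still tested lost the call with control 1 omitted (adjusted p = 0.103 to 0.239). With control 2 omitted, 60 of 61 lost it (0.0767 to 0.171), UCN2 being the exception, and with silenced 2 omitted all 60 (0.0748 to 0.183). With silenced 1 omitted, 24 of 61 lost it (0.0502 to 0.128), and with any 1 SK-OV-3 array omitted 18 to 26 of 65 (0.0501 to 0.0796). The sign of every called named gene stayed the same in all of these fits.

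Genes of mitosis and cytokinesis were lower in silenced cells as a group. Of 70 listed genes 46 were detected. Of these 25 (54.3%) were called lower, against 2.24% of all detected genes, and 0 higher. All 46 changes lay below 0 with a median of -1.57. In 44 of the 46 both silenced arrays lay below both controls, against 25.1% of all detected genes. The exceptions were CKS2 (-0.15) and ASPM (-0.82). The median was -1.29 in experiment 1 and -1.67 in experiment 2, and among the 39 members detected on all 4 arrays it was -1.60 with 24 lower. The list was drawn up with earlier results of these arrays known, so its direction is not independent evidence. In bulk RNA, fewer dividing cells and less of these RNAs per cell cannot be told apart. The count was 38 with the experiment block, 18 to 21 without any 1 SK-OV-3 array, 23 with silenced 1 omitted, and 0 with control 1, control 2 or silenced 2 omitted, where 33, 36 and 36 members still had an unadjusted p below 0.05 and a lower level.

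The mitosis genes at the head of the response covered the centromere, the kinetochore, the mitotic kinases and chromosome resolution. CENPA, the histone H3 variant that marks centromeres, was at 11.37 and 11.44 in control and at 9.21 and 8.59 in silenced cells. TOP2A, the topoisomerase that separates sister chromatids, was at 14.42 and 14.11 in control and at 12.31 and 11.35 in silenced cells. AURKB, the kinase of the chromosomal passenger complex, was at 12.53 and 12.39 in control and at 10.72 and 9.58 in silenced cells. For all 3 genes the groups were well apart, and the silenced array of experiment 2 was the lowest. Their promoter windows, 250 bases before to 50 after the start site, are shown because these are 3 of the largest falls and because mitotic promoters are known for the motifs searched. The windows are RefSeq sequence of GRCh38.p14 on the gene's own strand, chr2:26785806-26786105 (plus strand) for CENPA, chr17:40417847-40418146 (minus strand) for TOP2A and chr17:8210176-8210475 (minus strand) for AURKB. Capitals mark the CCAAT box, the TTTGAA core of the cell cycle homology region, and the E2F site forms TTCCCGC and TTGGCGC, on either strand. A box on the other strand reads ATTGG here and is called reverse.
CENPA: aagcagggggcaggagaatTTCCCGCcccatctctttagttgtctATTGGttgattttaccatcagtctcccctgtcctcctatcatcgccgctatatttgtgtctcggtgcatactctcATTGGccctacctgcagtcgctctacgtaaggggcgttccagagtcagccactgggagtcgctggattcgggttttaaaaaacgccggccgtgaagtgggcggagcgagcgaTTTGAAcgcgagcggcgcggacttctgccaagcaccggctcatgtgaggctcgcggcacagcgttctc
TOP2A: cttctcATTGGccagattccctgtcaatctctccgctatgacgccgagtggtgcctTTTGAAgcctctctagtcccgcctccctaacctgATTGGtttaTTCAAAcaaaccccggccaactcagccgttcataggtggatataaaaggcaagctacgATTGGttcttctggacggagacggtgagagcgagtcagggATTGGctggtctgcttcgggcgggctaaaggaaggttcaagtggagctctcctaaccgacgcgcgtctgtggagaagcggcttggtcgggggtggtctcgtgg
AURKB: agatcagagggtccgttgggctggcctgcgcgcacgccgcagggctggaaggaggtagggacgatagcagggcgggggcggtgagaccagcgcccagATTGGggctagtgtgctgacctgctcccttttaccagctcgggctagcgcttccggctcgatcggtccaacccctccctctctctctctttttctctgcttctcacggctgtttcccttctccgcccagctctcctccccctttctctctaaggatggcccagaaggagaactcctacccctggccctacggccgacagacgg

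Counted from the start site as 0, CENPA held TTTGAA at position -18, TTCCCGC at -231 and reverse CCAAT boxes at -205 and -130. TOP2A held 4 reverse CCAAT boxes, at -244, -160, -93 and -53, with TTTGAA at -194 and its reverse at -151. AURKB held 1 reverse CCAAT box, at -153, and none of the other letters in this window. All 3 fell, with log2 changes of -2.50 for CENPA (SE 0.27, limma adjusted p = 0.0149), -2.44 for TOP2A (SE 0.32, 0.0203) and -2.31 for AURKB (SE 0.36, 0.0257).

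AURKA, the kinase of the spindle poles, was at 13.84 and 13.74 in control and at 11.54 and 11.49 in silenced cells, so the replicates were close and the groups far apart. It fell by 2.28 (SE 0.20, limma adjusted p = 0.0149), and its other detected probe changed by -2.29. SPC24, a subunit of the NDC80 complex that binds microtubules, went from 10.87 and 10.07 to 8.38 and 7.96 (-2.30, SE 0.34, adjusted p = 0.0230). CDC25C, the phosphatase that activates CDK1, went from 9.51 and 9.36 to 7.98 and 7.67 (-1.61, SE 0.21, 0.0203). PLK1, a kinase of mitotic entry and spindle assembly, fell by 2.07 (0.0217), and CCNA2, the S and G2 phase cyclin, fell by 2.06 (0.0401). The CCNA2 fall was uneven, -1.27 in experiment 1 and -2.86 in experiment 2. INCENP, the scaffold of the passenger complex, fell by 1.81 (0.0214), and HMMR, a spindle protein, fell by 1.99 (0.0257). CDC20, the activator of the anaphase-promoting complex, was lower by a smaller amount, -1.48 (0.0257). The other called members were CDCA5, CDCA8, CENPF, CENPM, CKAP2L, ESPL1, KIF2C, KIF4A, KNTC1, MELK, RACGAP1, TPX2, TROAP and ZWINT, the last a kinetochore protein undetected on both silenced arrays and at least 1.78-fold lower (0.0309). FOXM1, the factor that activates G2/M promoters, changed by -0.94, short of the threshold (adjusted p = 0.0549). MKI67, which encodes the Ki-67 proliferation antigen, went from 10.55 and 10.42 to 8.72 and 8.24 (-2.01, SE 0.23, adjusted p = 0.0149). HASPIN, the kinase that marks histone H3 at centromeres, was undetected on both silenced arrays and was at least 2.74-fold lower (adjusted p = 0.0257).

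Genes of DNA replication and the G1/S transition were also lower, by somewhat less. Of 61 listed genes 44 were detected. Of these 18 (40.9%) were called lower, against 2.24% of all detected genes, and 0 higher. Below 0 lay 43 of the 44, with a list median of -1.19, and the other was RPA3, at 0.04. The median was -1.11 in experiment 1 and -1.27 in experiment 2. ORC1, the largest subunit of the origin recognition complex, was at 10.54 and 10.52 in control and at 8.63 and 8.13 in silenced cells. E2F2, an activating E2F factor, was at 11.62 and 11.45 in control and at 9.56 and 9.21 in silenced cells. CDC45, a component of the replicative helicase, was at 9.99 and 8.87 in control and at 7.26 and 6.05 in silenced cells. The groups did not overlap for any of the 3, but CDC45 varied between experiments in both groups and was detected on only 1 silenced array. Their promoter windows, which carry different motifs, lie at chr1:52404374-52404673 (minus strand), chr1:23531184-23531483 (minus strand) and chr22:19479670-19479969 (plus strand) in the same build, with capitals as above.
ORC1: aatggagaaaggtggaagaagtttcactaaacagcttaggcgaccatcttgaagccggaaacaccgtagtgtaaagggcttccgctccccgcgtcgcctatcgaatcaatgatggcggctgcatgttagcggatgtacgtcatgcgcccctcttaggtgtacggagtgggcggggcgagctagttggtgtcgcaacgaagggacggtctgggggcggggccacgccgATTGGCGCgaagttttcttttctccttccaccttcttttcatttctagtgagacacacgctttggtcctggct
E2F2: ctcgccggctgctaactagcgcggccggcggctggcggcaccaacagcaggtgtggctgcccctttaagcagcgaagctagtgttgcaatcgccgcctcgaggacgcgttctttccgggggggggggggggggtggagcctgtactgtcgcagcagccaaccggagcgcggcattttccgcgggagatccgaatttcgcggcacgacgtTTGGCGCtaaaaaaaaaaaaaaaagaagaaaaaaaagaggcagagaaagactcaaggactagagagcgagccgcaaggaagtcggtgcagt
CDC45: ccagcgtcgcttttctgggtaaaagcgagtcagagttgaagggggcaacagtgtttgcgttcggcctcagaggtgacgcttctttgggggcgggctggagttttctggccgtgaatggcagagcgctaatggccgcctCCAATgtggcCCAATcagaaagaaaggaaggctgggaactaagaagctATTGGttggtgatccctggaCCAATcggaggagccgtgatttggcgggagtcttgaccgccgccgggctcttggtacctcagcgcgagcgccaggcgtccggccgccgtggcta

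TTGGCGC, a form of the E2F site, stood at -22 in ORC1, where it shares 4 letters with a reverse CCAAT box at -23, and at -41 in E2F2. CDC45 held 4 CCAAT boxes, forward at -112, -102 and -44 and reverse at -64, and neither E2F form as searched. All 3 fell, with log2 changes of -2.15 for ORC1 (SE 0.27, limma adjusted p = 0.0176), -2.15 for E2F2 (SE 0.31, 0.0230) and -2.77 for CDC45 (SE 0.47, 0.0285). The size of the CDC45 fall rests on a level not above background in silenced 2, and its change was -1.62 on the authors' normalized values and -1.81 where background was not corrected.

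MCM4, a subunit of the MCM helicase, went from 13.22 and 13.36 to 11.69 and 11.48, with close replicates in each group (-1.71, SE 0.23, limma adjusted p = 0.0210). CDC25A, the phosphatase that activates CDK2, went from 11.56 and 11.70 to 10.32 and 10.27 (-1.33, SE 0.19, 0.0230). Its other detected probe changed by -0.84 and was not called (0.271). The remaining called members were the helicase subunits MCM2 and MCM6, the GINS subunits GINS2 and GINS3, the licensing factor CDT1 and the clamp loader subunit RFC3. Others were the polymerase genes POLD1, POLE2 and PRIM1, the histone chaperones ASF1B, CHAF1A and CHAF1B, and the maintenance methyltransferase DNMT1. CCNE1, the G1/S cyclin, and PCNA, the sliding clamp, changed by -0.33 and -0.50 without passing (adjusted p = 0.544 and 0.255). The count for the list was 27 with the block, 15 and 14 with control 1 or control 2 of SK-OV-3 omitted, 8 with either of its silenced arrays omitted and 10 with silenced 1 of TOV-21G omitted. It was 0 with control 1, control 2 or silenced 2 of TOV-21G omitted, with 28, 30 and 27 members lower at an unadjusted p below 0.05.

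The lowered genes of the 2 lists differed in the letters of their promoters. RefSeq windows matched 6397 of the 7689 named detected genes by Entrez ID, among them 220 of the 273 called. TTTGAA was in 12 of 19 lowered mitosis genes (63.2%) and 1 of 17 lowered replication genes (5.88%), against 8.75% of detected genes, 6.58% of called higher genes and 15.4% of all 27305 genes with a window. Either E2F form, TTCCCGC or TTGGCGC, was in 12 of 17 lowered replication genes (70.6%) and 4 of 19 lowered mitosis genes (21.1%), against 15.4% of detected genes, 9.21% of called higher genes and 9.33% of all. CCAAT was in 78.9% of the lowered mitosis genes and 47.1% of the lowered replication genes, against 37.5% of detected genes and 42.1% of called higher genes. The same held for detected members of each list whether or not called, with TTTGAA in 24 of 36 mitosis genes (66.7%) and either E2F form in 23 of 38 replication genes (60.5%). Among the 108 lowered genes with a window in neither list, 19.4% held TTTGAA and 24.1% either E2F form. These shares describe letters in a window on both strands and are not sites shown to be bound.

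**Figure D2:**
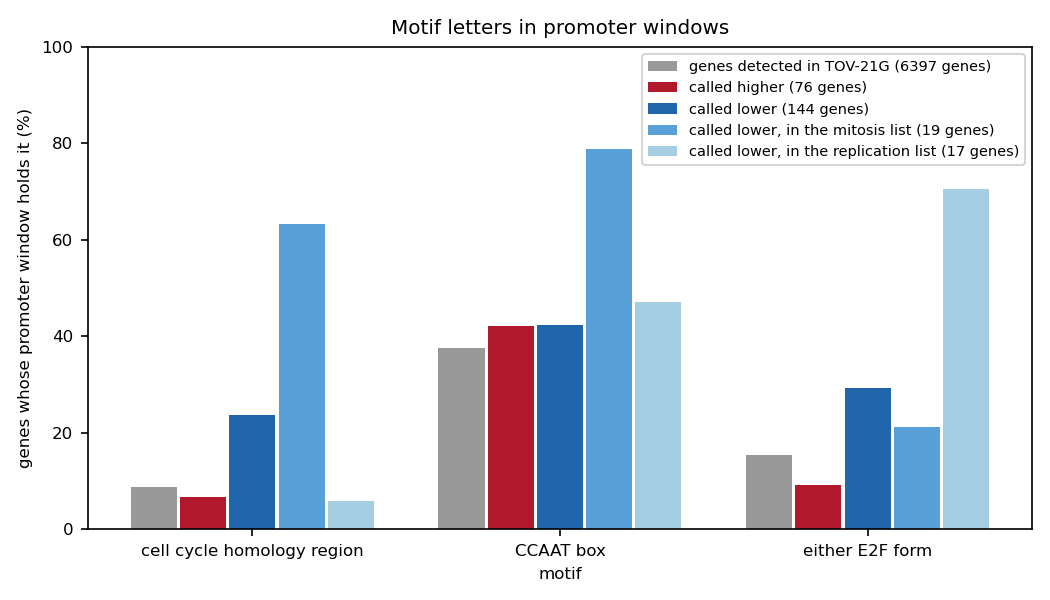
Bars give the percentage of genes whose promoter window holds each motif, for the 6397 detected genes, those called higher (76) or lower (144), and the lowered genes of the mitosis (19) and replication (17) lists. The cell cycle homology region is most frequent in lowered mitosis genes (63.2%) and either E2F form in lowered replication genes (70.6%).

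Genes that feed or guard DNA synthesis changed less as groups than the mitosis and replication lists. Their shares of called genes were still larger than those of all detected genes, 2.24% lower and 1.17% higher. RRM2, the regulated subunit of ribonucleotide reductase, was at 12.11 and 11.78 in control and at 9.82 and 9.24 in silenced cells, and fell by 2.41 (SE 0.27, limma adjusted p = 0.0149). DUT, the dUTPase, fell by 1.66 (0.0257) by the probe used, while its other detected probe changed by -0.10 (0.893). These were the 2 of 25 detected nucleotide synthesis genes that were called (8% lower), with a list median of -0.41. RRM1 and TK1, the large reductase subunit and thymidine kinase, changed by -1.10 and -1.13 just short of the threshold (0.0555 and 0.0577). Of 39 DNA repair genes 5 (12.8%) were called lower, with a list median of -0.51. Among them were the exonuclease EXO1 (-2.28, 0.0374), the ubiquitin ligase subunit BARD1 (-1.74, 0.0288), the homologous recombination gene XRCC3 (-1.39, 0.0257) and the deubiquitinase USP1 (-1.17, 0.0486). EXO1 was detected on only 1 silenced array, changed by -1.23 with no background correction and lost its call with no detection filter (0.0531). POLQ, the polymerase of theta-mediated end joining, went from 9.50 and 9.14 to 7.66 and 6.66 (-2.16, SE 0.35, 0.0257). In the list of cohesin, condensin and histone genes the median was -0.52 over 20 members, with 10% called lower and 5% higher. SMC1A, a cohesin subunit, was undetected on both silenced arrays and at least 2.78-fold lower (0.0257), and NCAPD2, a condensin subunit, fell by 1.49 (0.0257). H2BC5, a histone H2B gene with near-identical copies, rose by 1.44 (0.0467) and lost the call with median scaling (1.30, 0.142). With the experiment block 4 nucleotide synthesis genes were called lower, and in the cohesin, condensin and histone list 5 were lower and 2 higher.

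Regulators of the G1 decision and of cell death held 0 to 2 calls per list, where 3.42% of all detected genes were called. RBL1, which encodes the pocket protein p107 and is itself an E2F target, was at 8.72 and 8.74 in control cells and undetected on both silenced arrays, at 6.29 and 6.10. It was at least 4.71-fold lower (limma adjusted p = 0.0149). SKP2, the F-box protein that targets the CDK inhibitor p27, fell by 1.10 (0.0463), and lost the call with median scaling (-1.21, 0.0645); its other detected probe changed by -0.93 and was not called. These were the 2 called of 26 CDK inhibitor, pocket protein and cyclin D genes, whose median was -0.09. The median of 25 p53 targets was 0.29, with 19 above 0. Limma called 0, and 4 higher and 1 lower had an unadjusted p below 0.05. Over all detected genes 1807 of 8598 had such a p, so counts of this kind are given as description. GADD45A, a growth arrest gene, was at 8.53 and 8.59 in control and at 10.73 and 9.81 in silenced cells, above both controls, but its change of 1.71 did not pass (SE 0.55, 0.141). GDF15, a stress cytokine, changed by 0.81 (0.140). CDKN1A, which encodes p21 and was singled out after its values were seen, changed by 0.29 by the probe used. Its other detected probe went from 8.77 and 9.28 to 10.97 and 11.06, a change of 1.99 (SE 0.31, adjusted p over all probes = 0.0266), so the 2 probes disagree in their call. The probe used read 14.57 to 15.07 on the 4 arrays. Of 23 apoptosis regulators limma called 0, with 2 higher and 5 lower at an unadjusted p below 0.05 and a median of 0.11. BCL2L1, the gene of BCL-XL, was nearest (-0.88, 0.0595). With the experiment block 1 apoptosis regulator was called lower and 1 gene of the CDK inhibitor list higher.

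**Figure D3:**
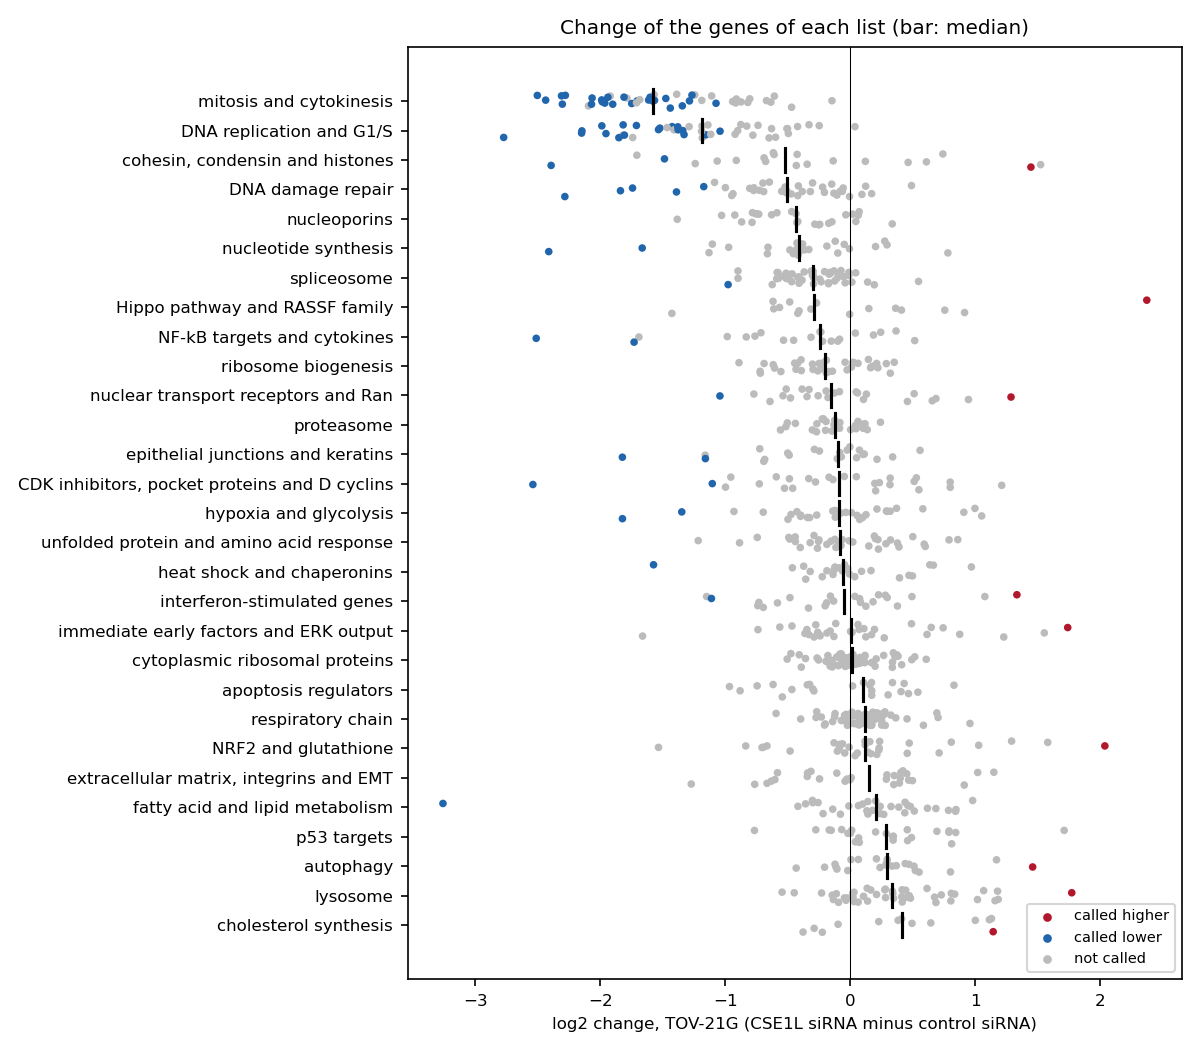
Each row is a gene list and each point a detected member, placed by its log2 change in TOV-21G (silenced minus control); black bars are medians, and red and blue points are genes called higher and lower. The mitosis (median -1.57) and replication (-1.19) lists lie to the left, while the other medians lie between -0.52 and 0.41.

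RASSF1, a tumour suppressor of the Ras association domain family, had the largest rise among genes with a symbol. It was at 9.34 and 9.36 in control and at 11.72 and 11.72 in silenced cells, with replicates far closer than the gap between groups. The change was 2.37 (SE 0.25, 5.18-fold, limma adjusted p = 0.0149), and its 2 other detected probes, called as well, changed by 2.22 and 2.17. The RASSF1 call was lost when control 1 (adjusted p = 0.103), control 2 (0.0767) or silenced 2 (0.0748) was omitted. RASSF1 was the 1 called gene of 16 (6.25%) in the Hippo pathway and RASSF list, whose median was -0.29. Over all detected genes 3.42% were called. RASSF2 was undetected on both silenced arrays and did not pass (0.0559), and LATS2, a Hippo kinase, changed by 0.76 (0.188). The block also called 1 gene of this list lower.

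The other large rises among genes detected on all 4 arrays had varied functions. MACROD1, a mono-ADP-ribosyl hydrolase, went from 7.63 and 7.29 to 9.32 and 9.32 (1.86, SE 0.27, limma adjusted p = 0.0230). DISP2, of the Dispatched family, went from 8.07 and 8.53 to 9.89 and 10.40 (1.85, SE 0.33, 0.0309). CTSF, the lysosomal protease cathepsin F, went from 8.16 and 8.37 to 9.98 and 10.10 (1.77, SE 0.34, 0.0385). In each the lower silenced array stood more than 1 unit above the higher control array. KLHL28, a Kelch-like protein gene, went from 9.49 and 9.76 to 11.48 and 11.28 (1.75, SE 0.21, 0.0164). KDM6B, a histone H3K27 demethylase, went from 6.85 and 7.16 to 8.27 and 9.14, the silenced arrays being less alike (1.70, SE 0.32, 0.0349). RN7SK, the 7SK RNA that keeps the elongation factor P-TEFb inactive, went from 7.99 and 8.22 to 9.54 and 10.01 (1.67, SE 0.24, 0.0230). In these 3 the groups were again apart, and the KDM6B change was 1.09 with no background correction. ZBTB47, a zinc finger gene, rose by 1.66 (0.0261), or by 0.97 with no background correction. GDPD5, a glycerophosphodiesterase, rose by 1.58 (0.0422) and lost the call with median scaling (1.42, 0.0548). The list closed with CLDND2 (1.55, 0.0230), FABP6, an ileal bile acid carrier (1.53, 0.0355), and CELSR3, a cadherin of planar polarity (1.498, 0.0262). With the values normalized by the authors MACROD1, KDM6B, ZBTB47, FABP6 and CELSR3 changed by 1.22, 1.005, 0.89, 0.99 and 0.85.

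**Figure D4:**
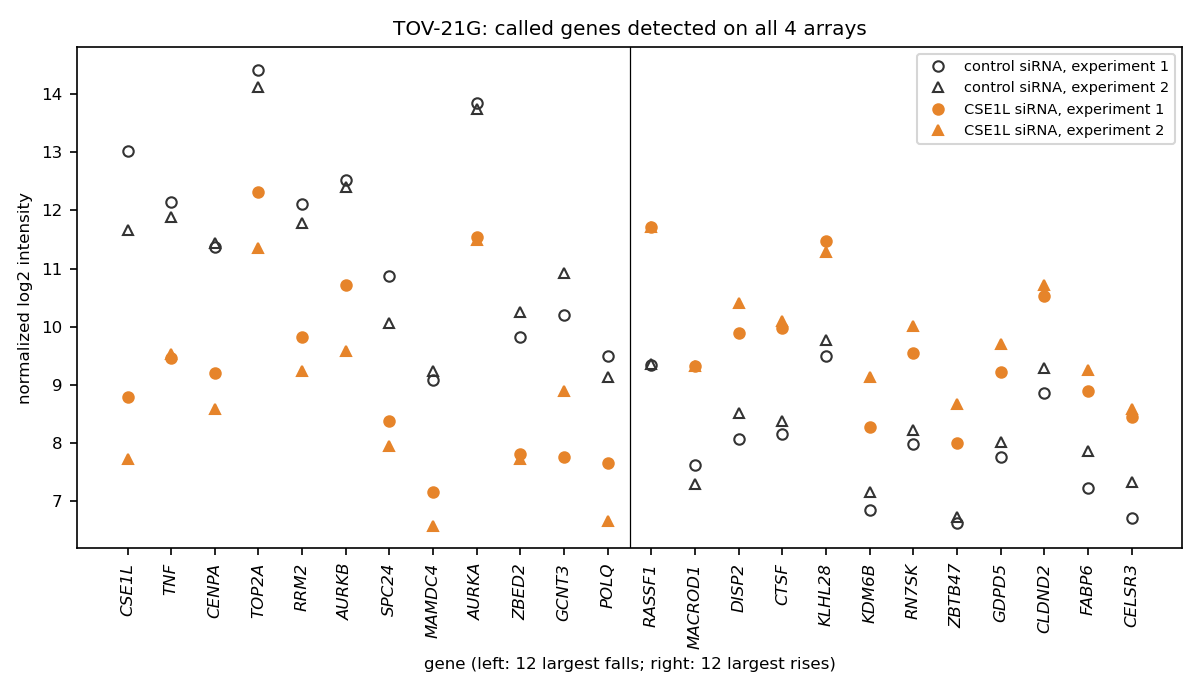
Normalized log2 intensity of the 12 genes with the largest falls (left) and the 12 with the largest rises (right) among called genes with a symbol that were detected on all 4 arrays; open symbols are control and filled symbols silenced cells, circles experiment 1 and triangles experiment 2. For every gene both filled symbols lie on the same side of both open ones, as for RASSF1 at 9.34 and 9.36 against 11.72 and 11.72.

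Several of the largest falls lay outside cell division. TNF, the inflammatory cytokine, was at 12.13 and 11.89 in control and at 9.47 and 9.54 in silenced cells (-2.51, SE 0.38, limma adjusted p = 0.0257). MAMDC4, a MAM domain protein gene, went from 9.08 and 9.24 to 7.16 and 6.58 (-2.29, SE 0.26, 0.0149). ZBED2, a BED zinc finger gene, went from 9.83 and 10.25 to 7.81 and 7.73 (-2.27, SE 0.27, 0.0158). GCNT3, a glycosyltransferase that branches mucin O-glycans, went from 10.20 and 10.92 to 7.76 and 8.90, the arrays of each group differing by less than the groups did (-2.23, SE 0.41, 0.0321). ACOT11, an acyl-CoA thioesterase, went from 9.48 and 9.13 to 6.78 and 5.33 (-3.26, SE 0.51, 0.0257). ACOT11 was detected on only 1 silenced array, so the size of its fall rests on a level not above background, and its change was -1.96 with no background correction and -1.75 with the values normalized by the authors. MAMDC4 and POLQ changed by -1.36 and -1.33 on the authors' values. TNF also lost its call with silenced 1 omitted (0.061).

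Some genes passed below or above detection with silencing. Of the detected genes 118 were detected on both control arrays and no silenced array, and 98 on both silenced arrays and no control array; 37 genes called lower and 19 called higher were undetected on both arrays of their dimmer group. For these the fold is a lower bound, set for each dim array at the higher of its lowest detected signal and the gene's own. UCN2, the peptide hormone urocortin 2, was at 8.84 and 7.88 in control cells and undetected in silenced cells, at least 3.64-fold lower (limma adjusted p = 0.0149). C6orf58 was at 7.96 and 8.19 in control cells and at least 2.99-fold lower (0.0149). CDH1, which encodes E-cadherin, was at 7.57 and 7.99 in control cells and at least 2.44-fold lower (0.0176). In the other direction GRK4, a kinase of G protein-coupled receptors, was at 8.43 and 8.13 in silenced cells and at least 3.45-fold higher (0.0257). GSTM3, a glutathione transferase of a family with near-identical members, was at 7.20 and 7.96 and at least 2.12-fold higher (0.0214). The dehydrogenase gene DHRS12 was at least 2.58-fold, the F-box gene FBXL8 at least 2.39-fold and CMTM1 at least 2.19-fold higher (0.0321, 0.0310 and 0.0321). The other DHRS12 probe changed by 0.53 and was not called (0.401). With the values normalized by the authors DHRS12, FBXL8 and CMTM1 lost their calls (0.0519 to 0.0556), and changes of all these genes moved toward 0 by more than 1.5 times there and with no background correction. On the authors' values they were, on the log2 scale, -1.44 for UCN2, -1.22 for C6orf58, -0.79 for CDH1, 1.09 for GRK4 and 0.82 for GSTM3. RBL1, SMC1A and HASPIN were at -1.32, -1.02 and -0.94 on those values, and DHRS12, FBXL8 and CMTM1 at 0.69, 0.74 and 0.78. The bounds therefore hold for the processing used here.

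Signalling and surface lists held 0 to 2 calls each, where 3.42% of all detected genes were called. The NF-kB (9.52%), epithelial (9.09%) and interferon (4.17% higher and 4.17% lower) lists had larger shares. The immediate early (3.03%) and matrix (0%) lists had smaller ones. Among 21 NF-kB targets and cytokines TNF and LTB fell, and the median was -0.24. LTB, lymphotoxin beta, was at 6.91 and 6.75 in control cells and undetected in silenced cells, at least 1.26-fold lower (limma adjusted p = 0.0185), and was not called on the values normalized by the authors (-0.62, 0.061). IL6, an NF-kB induced cytokine, was at 14.72 and 14.77 in control and at 12.89 and 13.22 in silenced cells, but its change of -1.69 did not pass (SE 0.48, 0.110). Among 24 interferon-stimulated genes the transcription factor IRF1 fell by 1.11 (0.0401) and HLA-E, a class I related gene, rose by 1.33 (0.0465), with a median of -0.05; HLA-E lost the call with median scaling (1.17, 0.120). FOSB, an AP-1 subunit, was the 1 called of 33 immediate early genes and rose by 1.74 (0.0261), or 0.92 with no background correction; it was detected on 1 of the 2 control arrays. ZFP36 and ATF3 of that list changed by 1.55 and 1.23 without passing (0.0594 and 0.116). In the epithelial list CDH1 and KRT80, a keratin, fell, KRT80 with a change of -1.16 (0.0413), with a median of -0.09 over 22 genes; KRT80 lost the call with median scaling (-1.23, 0.0711). Of 30 matrix, integrin and EMT genes limma called 0, and the median was 0.15. At an unadjusted p below 0.05 were 2 higher and 3 lower, against 1807 of the 8598 detected genes. ITGB4, the integrin of hemidesmosomes, was nearest (-1.27, 0.0529). With the experiment block 3 genes of the matrix list were called higher and 1 lower, and 1 immediate early gene and 2 interferon-stimulated genes were called lower. The sign of the median changed under at least 1 other setting or omitted array for the interferon, immediate early, matrix, CDK inhibitor, apoptosis, NRF2, unfolded protein, heat shock, hypoxia, ribosomal protein and proteasome lists.

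Lipid, lysosome and autophagy lists had medians above 0 with 1 call each, where 3.42% of all detected genes were called. The call was a rise except in the fatty acid and lipid list, where it was a fall. HMGCS1, the synthase at the entry to the mevalonate pathway, went from 8.70 and 8.73 to 10.04 and 9.67 (1.14, SE 0.23, limma adjusted p = 0.0406), the 1 called of 13 cholesterol genes, whose median was 0.41. SC5D, a later enzyme of sterol synthesis, changed by 1.13 without passing (0.110). Of 33 fatty acid and lipid genes ACOT11 was called, and it was lower (-3.26). Above 0 lay 23, among them SCD (0.98, 0.0581), the stearoyl-CoA desaturase, and the list median was 0.20. Of 47 lysosomal genes 37 lay above 0, with a median of 0.34 and CTSF called. Both silenced arrays lay above both controls for 17 of them and below for 3, against 24.9% and 25.1% of all detected genes. LIPA, lysosomal acid lipase, and CTSD, cathepsin D, changed by 1.02 and 0.81 without passing (0.0774 and 0.0855). MAP1LC3B, which encodes the LC3B protein of autophagosomes, went from 8.64 and 8.88 to 10.24 and 10.19 (1.46, SE 0.27, 0.0329), the 1 called of 23 autophagy genes, with a median of 0.29. With the experiment block 5 lysosomal, 2 cholesterol and 1 fatty acid or lipid genes were called higher, and with median scaling the HMGCS1 and MAP1LC3B calls were lost (0.95 and 1.27, adjusted p = 0.131 and 0.0696). CTSF lost its call with silenced 1 omitted (0.0922) and with no detection filter (0.0531).

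Stress and metabolic lists were near the median of all detected genes. They held 0 to 2 calls each, where 3.42% of all detected genes were called. GSTM3 was the 1 called of 32 NRF2 and glutathione genes (median 0.12), in which HMOX1, heme oxygenase, at 1.58 and SLC7A11, the cystine transporter, at -1.53 did not pass (limma adjusted p = 0.0729 and 0.0664). FKBP5, an HSP90 cochaperone gene that glucocorticoids induce, went from 10.11 and 9.74 to 8.71 and 7.996 (-1.57, SE 0.31, 0.0401). It was the 1 called of 24 heat shock and chaperonin genes (median -0.05). FKBP5 lost the call with no detection filter (0.0533) and when any 1 SK-OV-3 array was omitted. PDK3, a pyruvate dehydrogenase kinase (-1.35, 0.0246), and CA12, a carbonic anhydrase (-1.82, 0.0283), were the 2 called of 32 hypoxia and glycolysis genes (median -0.09). Of 36 unfolded protein and amino acid response genes limma called 0, and the median was -0.09. At an unadjusted p below 0.05 were 2, both lower, against 1807 of the 8598 detected genes. ATF5 was nearest to a call (-1.22, adjusted p = 0.0678). Fitting the experiment as a block called 4 NRF2 and glutathione genes higher and 1 unfolded protein response gene lower.

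Housekeeping machines held 0 or 1 call per list. Of all detected genes only 3.42% were called, so counts of calls this low say little about these lists. Limma called 0 of 57 respiratory chain genes (median 0.12), 0 of 62 cytoplasmic ribosomal proteins (0.01) and 0 of 29 proteasome subunits (-0.12), with 2, 0 and 0 at an unadjusted p below 0.05. Over all detected genes 1807 of 8598 had an unadjusted limma p below 0.05, a larger share than in these 3 lists. These 3 lists held 0 calls in each of the other whole-data settings tried. The changes of ribosomal protein genes ran from -0.50 for RPL13A to 0.61. Of 38 ribosome biogenesis genes 0 were called, 4 were lower at an unadjusted p below 0.05, and the median was -0.21, with the nucleolar methyltransferase FBL nearest (-0.89, adjusted p = 0.0729). The spliceosome list had a median of -0.30 with 45 of 50 below 0. HNRNPC, a pre-mRNA binding protein, was its 1 called gene, from 12.01 and 11.81 to 10.97 and 10.89 (-0.98, SE 0.19, 0.0405), and lost the call with median scaling (-1.09, 0.0743). SRSF6, a splicing factor, changed by -0.90 (0.0579). The block called 3 spliceosome genes and 1 ribosome biogenesis gene lower.

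The same contrast in SK-OV-3 served to ask whether the response was particular to TOV-21G. SK-OV-3 controls and silenced cells are separate arrays from those of TOV-21G. In SK-OV-3 limma called 1 gene, RASSF1, or 0.0107% of the 9377 tested. The test of the difference between the lines called 0 genes (0%), with a smallest adjusted p of 0.165; 948 genes, and 230 of the 294 called in TOV-21G, had an unadjusted p below 0.05. Because those 294 were chosen for their change in TOV-21G, that share is a description. The 193 lowered genes had a median of -0.22 in SK-OV-3 and 149 were below 0 there, as were 51.3% of detected genes. The 101 raised genes had a median of 0.36 in SK-OV-3 and 83 were above 0, as were 48.7% of detected genes. The mitosis and replication lists had medians of -0.13 and -0.17 in SK-OV-3, against -1.57 and -1.19 in TOV-21G. CSE1L was also reduced less in the SK-OV-3 arrays, from 12.04 and 12.56 to 10.51 and 8.99, and its part in the gap between the lines was not tested. The smallest p of the difference belonged to TRIM47 and TRIM6, of the TRIM family of ubiquitin ligases, and OVOL2, a zinc finger factor of epithelial cells. TRIM47 went from 9.40 and 9.16 to 7.67 and 7.46 in TOV-21G (-1.71, adjusted p = 0.0185) and changed by 1.08 in SK-OV-3. OVOL2 went from 10.73 and 10.995 to 8.84 and 8.87 (-2.01, 0.0154) and changed by 0.61 in SK-OV-3. TRIM6 went from 11.82 and 11.32 to 9.58 and 9.49 (-2.03, 0.0164) and changed by 0.45 in SK-OV-3. None of the 3 differences passed (adjusted p = 0.165 each), so no change is shown to be particular to TOV-21G by this fit. The count of differences called was 5 with no background correction, 10 on the values normalized by the authors and 11 with a trend and robust spread.

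**Figure D5:**
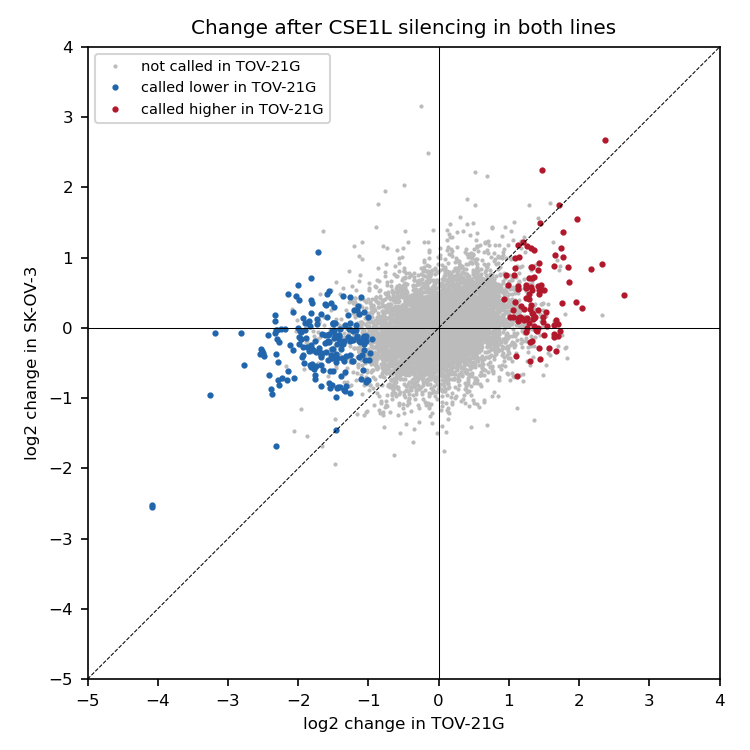
Each point is 1 of the 8598 detected genes, with its log2 change (silenced minus control) in TOV-21G on the horizontal and in SK-OV-3 on the vertical axis; the dashed line marks equal change, blue points are genes called lower and red points genes called higher in TOV-21G. Most coloured points lie nearer to 0 in SK-OV-3, with medians there of -0.22 and 0.36, and RASSF1 lies near the line at 2.37 and 2.68.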

How the data were processed

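RNA of 8 arrays was measured; the 4 TOV-21G arrays are described and the 4 SK-OV-3 arrays enter the shared fit. Per the file headers, the authors deposited non-normalized bead intensity on a linear scale, 1 value per probe and array, with a detection p-value beside each, which ranks the probe against negative control beads. Per the submitters' processing notes, BeadStudio 2 was used. A further deposited table held intensity as the authors normalized it; the sources used here do not give the method, and within each array the ranks of probes were the same as before it (Spearman rho 1).

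With limma 3.58.1 (R 4.3.3), normexp background correction used the detection p-values (offset 16), followed by quantile normalization and log2. Probes with a detection p below 0.01 in at least 2 of 8 arrays were kept (10888 of 24531), and the probe with the highest mean stood for a gene. Of all probes 21838 had 1 gene symbol, 0 several and 2693 none; 21817 were matched to RefSeq by Entrez ID. limma fitted 4 group means over 8 arrays, with Benjamini-Hochberg adjustment over 9377 genes. The number of arrays limits the precision. The pipeline was tested on simulated data. Promoters were RefSeq windows of GRCh38.p14, 1 start per gene, searched in Python 3.11.15; figures used matplotlib 3.10.9.

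The gene lists, the rule for named genes and the detected genes described were chosen with earlier results of these data known. Named were CSE1L, RASSF1 and the importin alpha genes; the 12 largest rises and falls among called genes detected on all 4 TOV-21G arrays; the 5 largest bounds in each direction; up to 4 genes of smallest p per list; and the 3 genes of smallest p between the lines. Further called list members, exceptions, ILMN_1706238, MKI67, CDC45 and CDKN1A were named after their values were seen. Where probes of a gene disagreed in call or sign, both are given for the called genes.

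Same-numbered deviations correlated at 0.59 across detected genes in TOV-21G, from 1 correlation. The labels do not say what the experiment number marks, and the main fit did not use it. A fit with it as a block inside each line was an alternative. Other alternatives were median scaling, no background correction, omitting each array, an offset of 50, the authors' values, other detection filters, all probes as themselves, a threshold of 0.01, a trend with robust spread, and only the 4 TOV-21G arrays. SK-OV-3 genes undetected in TOV-21G (779 tested) were left out.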

Additional observations from a re-analysis of the deposited data

How the results depend on the processing

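Against 294 called genes, limma called 580 with the experiment number as a replicate block, 527 with no background correction, 513 with a trend and robust spread, and 0 at an adjusted p below 0.01 or with only the 4 TOV-21G arrays (1583 at an unadjusted p below 0.05). Leaving out 1 array gave 0 to 180. A stricter threshold lowers the count by construction. The counts with fewer arrays depended on which array was omitted. The cause of these and of the higher counts was not tested. The count was 269 with median scaling, 422 with an offset of 50, 419 on the authors' values, 233 with no detection filter, 313 and 364 with detection in all 4 or at least 2 of the TOV-21G arrays, and 331 with all probes as themselves. Against 0 calls, the difference between the lines had 5 with no background correction, 10 on the authors' values and 11 with a trend and robust spread, and 0 in each of the other settings that hold both lines and without any 1 array. The block changed the call of none of the 65 called named genes. With no detection filter 10 of them lost the call (limma adjusted p = 0.0506 to 0.0642). These were CTSF, EXO1, FKBP5, GDPD5, H2BC5, HLA-E, HMGCS1, KPNA4, KRT80 and SKP2. Over all named genes and settings 2245 results kept side and sign, 447 lost a call and 148 gained one. The 1 that changed sign was PSMA4, of the proteasome, at -0.56 with all arrays, -1.19 without silenced replicate 1 and 0.0602 without silenced replicate 2 of TOV-21G. The files give no slide, so no slide block was run. Of the 65 called named genes, 25 on the authors' values (64 tested) and 19 where background was not corrected had a change smaller by over 1.5 times. A level under the lowest detected signal of its array limits what a change can show to a bound.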
